A study of Drosophila melanogaster with 2 samples.

Results

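The ELAV family genes of Drosophila melanogaster are elav, fne and Rbp9, and all 3 were found in the annotation, among 13945 protein-coding genes of the main chromosome arms. They were listed by name as a family and not by a threshold on the signal, although earlier results of these data were known when the family was chosen. Every summit of CG7101-GFP binding within 500 bp of an annotated transcription start site (TSS) of these genes, or inside them, was taken. This gave 6 of 6486 summits in the list that passed the irreproducible discovery rate (IDR) step, 2 in each gene, and 21 of 30000 summits in the list from the pooled replicates, which includes the 6. The data are chromatin immunoprecipitation and sequencing (ChIP-seq) of CG7101 from whole adult female flies of unknown age. The line carries a CG7101 transgene with green fluorescent protein (GFP) at the C-terminus, and the antibody recognises GFP; the control that the caller used was not analysed here. There is 1 group with 2 biological replicates, so no groups were compared and no test was run. Signal is the peak strength written by the authors' peak caller on a scale that is not stated, and it is set side by side only within a list. The IDR list ran from a signal of 142 to 11013 with a median of 245, and each replicate list held 30000 peaks with medians of 35.3 and 30.9.

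ELAV family proteins bind RNA through RNA recognition motifs, preferring U-rich stretches. ELAV (embryonic lethal abnormal vision) is a widely used marker of neurons and steers alternative splicing and the lengthening of 3' UTRs of neuronal transcripts. FNE (found in neurons) is its neuronal paralog. RBP9 acts in neurons and also in the female germline, where it is needed for egg chamber development. The mixed tissue of a whole fly gives no view of which cells a peak came from, and RNA was not measured.

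The DNA at the summits is shown first, since these sequences carry the positions described afterwards. Each line gives 75 bp on either side of an IDR summit, read along the transcription of the gene, from the RefSeq copy of the Release 6 genome, which shares its coordinates with dm6. Capitals mark matches to any of the words searched, on either strand. The words were the DNA replication-related element TATCGATA and its core CGATA, which overlap, the promoter element Motif 1 as GGTCACACT, Motif 6 and Motif 7 by name, the GAGA factor word GAGAG, the E-box CACGTG and the related word CAGCTG, the repeat CACACACA, the initiator word TCAGT and the TATA box word TATAAA. None of the 6 stretches touches an annotated exon of any gene. The elav sequences lie at chrX:523415-523565 and chrX:522573-522723, both on the minus strand.
elav, 264 bp upstream of its TSS: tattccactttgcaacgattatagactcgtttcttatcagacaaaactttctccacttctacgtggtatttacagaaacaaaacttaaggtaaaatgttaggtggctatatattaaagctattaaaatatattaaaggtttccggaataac
elav, intron: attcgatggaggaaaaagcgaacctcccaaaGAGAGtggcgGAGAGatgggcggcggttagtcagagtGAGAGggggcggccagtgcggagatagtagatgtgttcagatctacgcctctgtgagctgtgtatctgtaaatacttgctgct

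The fne sequences lie at chrX:12925994-12926144 and chrX:12937943-12938093, on the plus strand.
fne, intron: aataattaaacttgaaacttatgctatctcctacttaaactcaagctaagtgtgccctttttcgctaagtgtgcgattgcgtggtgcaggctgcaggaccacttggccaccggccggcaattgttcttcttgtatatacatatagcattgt
fne, 499 bp upstream of an internal TSS: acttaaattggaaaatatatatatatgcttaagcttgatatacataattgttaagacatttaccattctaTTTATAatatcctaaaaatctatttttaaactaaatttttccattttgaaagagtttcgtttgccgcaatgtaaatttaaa

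The Rbp9 sequences lie at chr2L:2956551-2956701 and chr2L:2957688-2957838, on the plus strand.
Rbp9, 285 bp upstream of an internal TSS: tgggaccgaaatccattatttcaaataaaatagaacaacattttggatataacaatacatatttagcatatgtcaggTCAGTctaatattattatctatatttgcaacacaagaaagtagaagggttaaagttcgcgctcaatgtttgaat
Rbp9, intron: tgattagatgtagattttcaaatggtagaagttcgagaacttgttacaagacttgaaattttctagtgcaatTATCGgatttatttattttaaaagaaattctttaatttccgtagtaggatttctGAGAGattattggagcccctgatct

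Each gene carried exactly 1 IDR summit within 500 bp upstream of a TSS and 1 inside the gene, over 500 bp from its TSSs. An IDR summit within 500 bp of a TSS was found in 33.3% of all protein-coding genes, and one within 500 bp of a TSS or anywhere inside the gene in 36.6%. At least 2 IDR summits by this rule were found in 9.84% of protein-coding genes, an IDR summit inside the gene and over 500 bp from its own TSSs in 9.34%, and both a promoter summit and another one in 6.02%. All 3 ELAV family genes met each of these definitions. The split into promoter and other summits depends on the 500 bp window. The other summits of elav and Rbp9 lay 578 and 852 bp from the nearest TSS, and the fne promoter summit lay 499 bp from one. With a window of 250 bp no promoter summit remained. The 3 genes are also long, at 14.0 kb for elav, 32.9 kb for fne and 13.7 kb for Rbp9, against a median of 2166 bp. Among the 1516 protein-coding genes of 10 to 40 kb, a length class chosen after the values were seen, 43.9% had a promoter IDR summit, 32.5% had at least 2 IDR summits and 24.9% had both kinds. The family is only 3 genes, and no difference from these shares was tested.

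**Figure D1:**
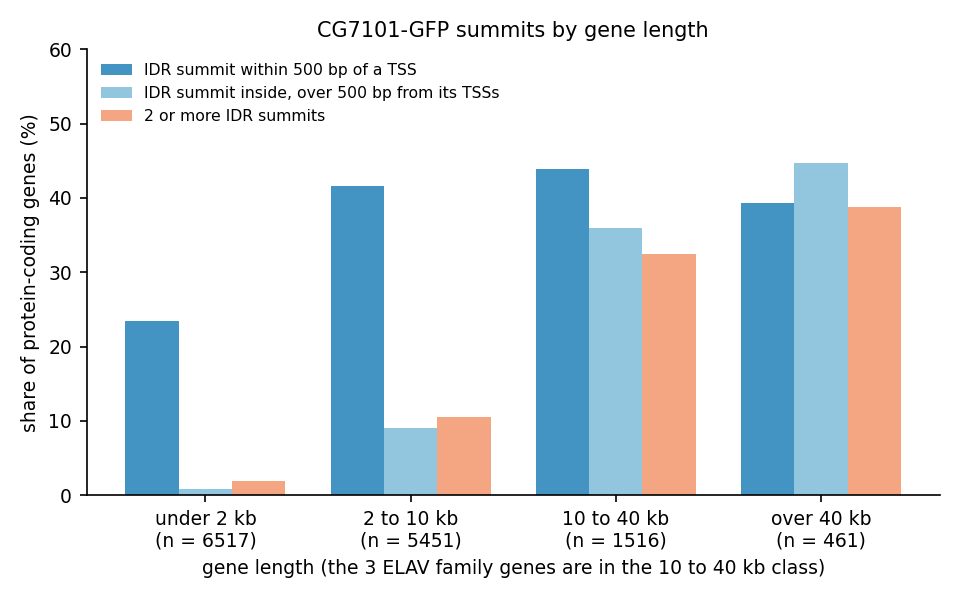
Bars give the share of protein-coding genes (%, vertical axis) with an IDR summit at a promoter, with one inside the gene away from its TSSs, and with 2 or more, in 4 classes of gene length (horizontal axis, with the number of genes). The share with 2 or more IDR summits is 1.93% under 2 kb and 32.5% in the 10 to 40 kb class that holds elav, fne and Rbp9.

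The elav gene (FBgn0260400, X, 509235 to 523226, minus strand) had the strongest binding of the family. Its promoter peak (523261 to 523688, signal 1923) had its summit at 523490, or 264 bp upstream of the TSS at 523226, from which 3 of its 4 transcripts start. This peak ranked 105 of the 6486 IDR peaks. It ranked 79 in replicate 1, where its signal was 1205, and 160 in replicate 2, where it was 724. The replicates placed it near the top of their lists, and their summits lay 3 bp apart. The median was 25 bp and the upper quartile 49 bp over 6463 IDR peaks of any rank matched in both replicates. At the other IDR peaks of the family the replicate summits lay 36 bp apart in the elav intron, and 73 bp (intron) and 74 bp (promoter) at fne. At Rbp9 they lay 105 bp (promoter) and 19 bp (intron) apart. Among IDR peaks within 250 ranks of the elav promoter peak, replicate ranks differed by a median of 40. The difference of 81 for elav is larger than usual there but under the 90th percentile of 136.

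The other IDR peak of elav lay in the first intron of the transcripts that start at 523226. It spanned 522471 to 522817, with a summit at 522648 that is 578 bp downstream of the TSS and 842 bp from the promoter summit. Its signal was 867 at rank 498, with rank 625 (signal 424) in replicate 1 and rank 424 (signal 435) in replicate 2. The promoter peak exceeded the intronic peak in both replicates, by 2.84 times in replicate 1 and 1.66 times in replicate 2.

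Both elav peaks also lie within another gene. The gene arg, which encodes arginase, an enzyme of arginine breakdown, overlaps all but the 3' end of elav on the opposite strand, from 509435 to 528028, and both summits fall in its intron, 13213 and 14055 bp from its TSS. The noncoding RNA gene lncRNA:enrr starts at the same TSS as elav, so leaving out summits within 500 bp of any other gene's TSS left elav 1 IDR summit. Binding at elav, lncRNA:enrr and the inside of arg cannot be told apart from positions.

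The fne gene (FBgn0086675, X, 12917477 to 12950417, plus strand) had 2 weaker IDR peaks that lay 11949 bp apart. The stronger one spanned 12937916 to 12938076, only 161 bp wide, with a signal of 225 at rank 3647. Its summit at 12938018 lay 499 bp upstream of the internal TSS at 12938517, just inside the window of 500 bp. It ranked 3333 in replicate 1 (signal 134) and 3848 in replicate 2 (signal 102). The summit stood at -473 bp from that TSS in replicate 1 and at -547 bp in replicate 2, outside the window. The promoter call of fne therefore rests on the exact summit, whereas the summit itself stays inside the gene in every list, since transcripts from the first promoter run across it. An HMS-Beagle transposable element annotated in the reference lies 329 bp upstream of this summit, and whether the flies used here carry it was not tested.

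The other IDR peak of fne was far from every start site. That peak (12925861 to 12926276, signal 189, rank 4600) had its summit at 12926069 in the second intron of the transcripts from the first promoter, 8585 bp downstream of the nearest TSS. It ranked 5151 in replicate 1 (signal 96.7) and 3930 in replicate 2 (signal 99.96). The fne peaks were close in strength, the promoter peak being 1.39 times the intronic one in replicate 1 and 1.02 times in replicate 2.

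The Rbp9 gene (FBgn0010263, 2L, 2954762 to 2968434, plus strand) had both IDR peaks inside the gene. The stronger one lay outside the 500 bp window of every TSS. This peak (2957658 to 2957909, signal 405, rank 1664) ranked 1595 in replicate 1 (signal 233) and 1870 in replicate 2 (signal 171). Its summit at 2957763 lay in introns, 852 bp downstream of the internal TSS at 2956911 and 1384 bp upstream of the one at 2959147. The promoter peak (2956418 to 2956833, signal 236, rank 3416) had its summit at 2956626, or 285 bp upstream of the TSS at 2956911. It ranked 3343 in replicate 1 (signal 134) and 3958 in replicate 2 (signal 99.6). Replicate 2 listed 2 neighbouring peaks there, with summits at -385 and -180 bp from the TSS. The promoter peak reached 0.575 of the intronic peak in replicate 1 and 0.584 in replicate 2, the opposite order to elav.

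In the whole pooled list elav had 7 summits, fne 8 and Rbp9 6. Inside the genes this was 0.429 summits per kb for elav, 0.213 for fne and 0.439 for Rbp9, against 0.236 over all protein-coding genes. The density at fne was thus close to that background, and the shorter elav and Rbp9 lay above it. Protein-coding genes of 10 to 40 kb had a median of 5 pooled summits. The counts of the family include weak summits, among them the elav one at 509414, near the TSS of arg. Of the pooled summits outside the IDR list, 2 of 5 at elav, 3 of 6 at fne and 2 of 4 at Rbp9 overlapped both replicates. The 2 at Rbp9 matched the same peak of replicate 2. Over all pooled peaks outside the IDR list the share overlapping both replicates was 67.6%.

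**Figure D2:**
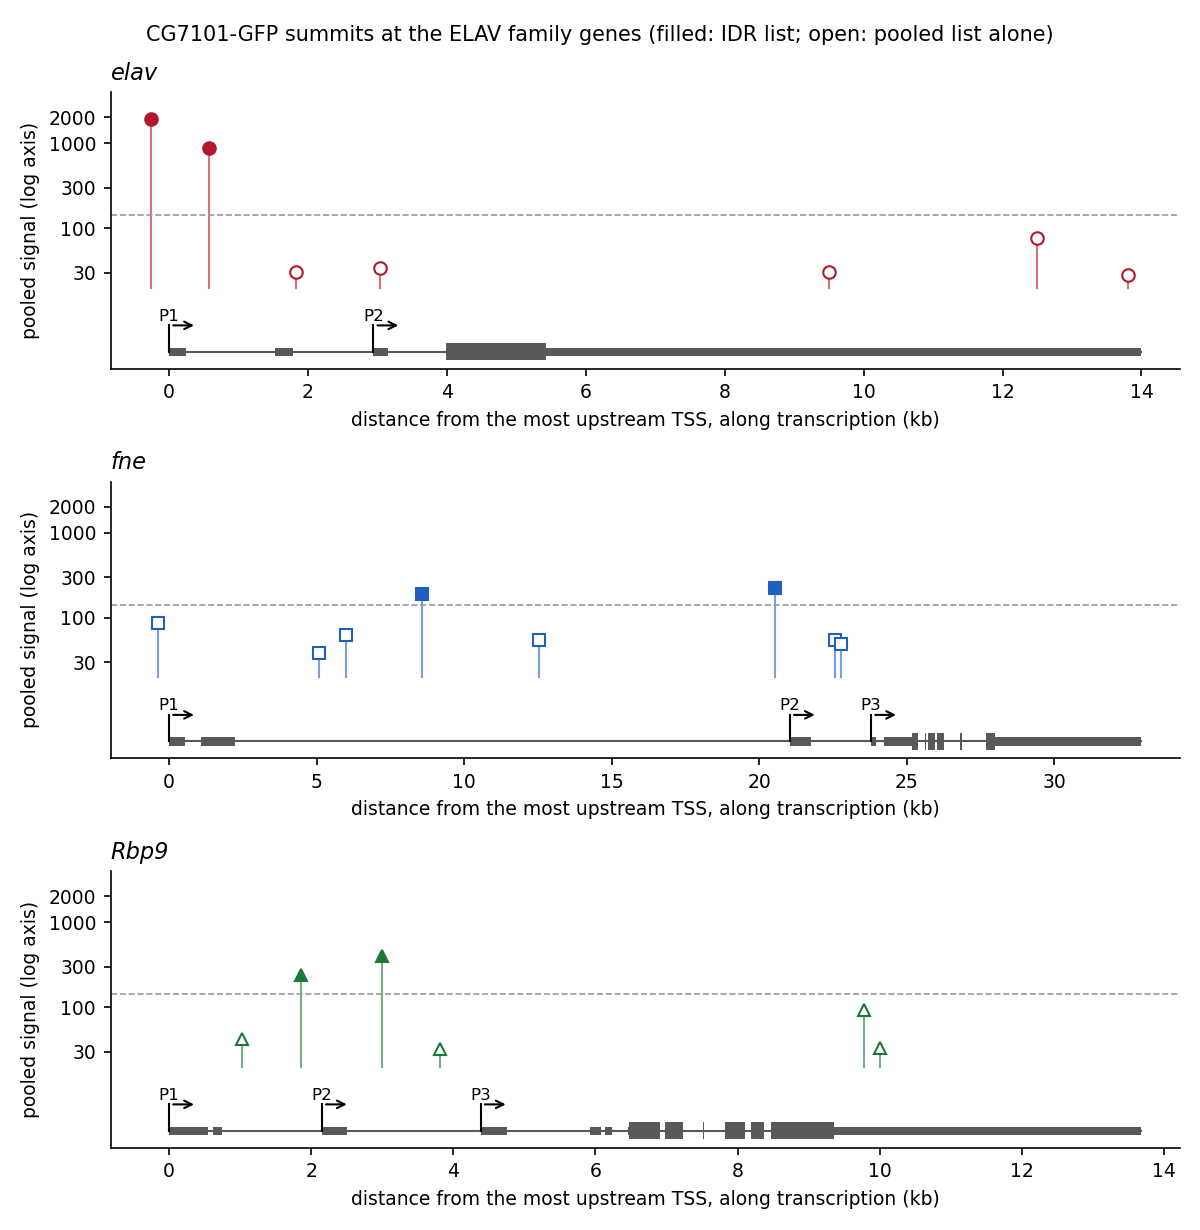
Each panel plots the summits assigned to a gene by distance from its most upstream TSS along transcription (kb) and by signal in the pooled list (log axis), with exons of all transcripts as thin and coding sequence as thick boxes below and promoters P1 to P3 as arrows. Filled symbols are the 2 IDR summits of each gene, above the dashed line at the lowest IDR signal of 142, and open symbols are in the pooled list alone.

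Taking the strongest peak of each gene, the order was elav, then Rbp9, then fne, with ranks of 79, 1595 and 3333 in replicate 1 and of 160, 1870 and 3848 in replicate 2. The gaps between neighbours in this order exceeded the rank difference between replicates for each of these peaks (81, 275 and 515). Over IDR peaks of similar rank, the 90th percentile of that difference was 136 near elav, 1185 near Rbp9 and 3195 near fne. The gap from elav to Rbp9 exceeded the values near these 2 genes in both replicates. The gap from Rbp9 to fne was below the value near fne, so the order of these 2 is less firm. The promoter peaks of Rbp9 and fne could not be ordered. Their ranks were 3343 and 3333 in replicate 1 and 3958 and 3848 in replicate 2, while IDR peaks of similar rank differed between replicates by a median of 1131 and 1154 ranks.

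**Figure D3:**
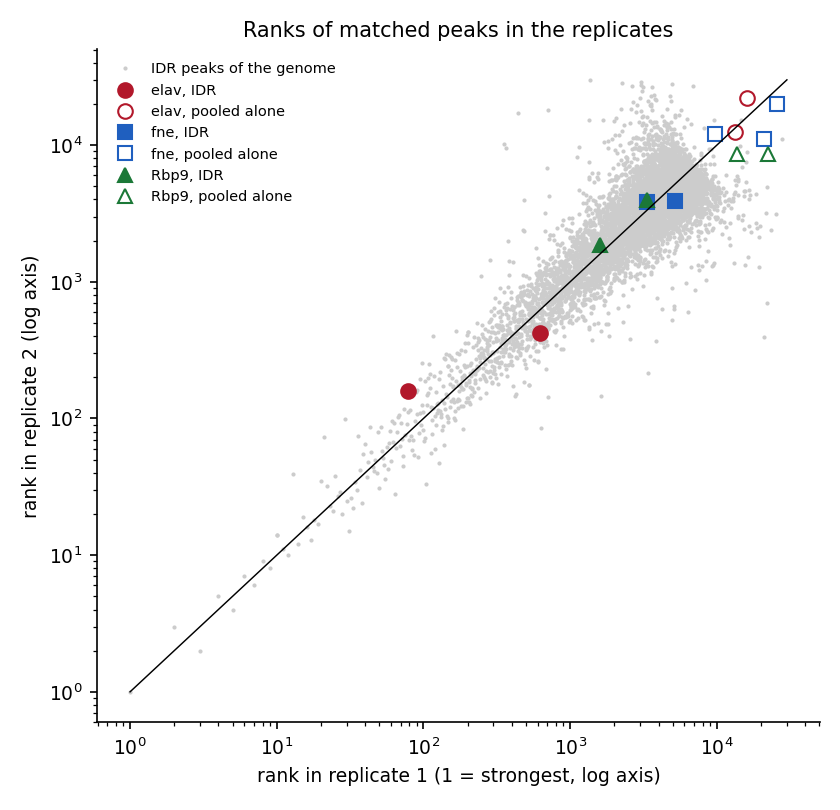
Each point is a peak matched in both replicates, by its rank in replicate 1 and replicate 2 (1 is the strongest, log axes), with IDR peaks of the genome in grey and the line of equal ranks. The elav peaks, at ranks 79 and 625 in replicate 1, lie toward the strong end, and the promoter peaks of fne and Rbp9, at ranks 3333 and 3343, overlap. Weaker pooled summits are drawn where both replicates had a match.

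Among the 4641 protein-coding genes with a promoter IDR summit, elav ranked 105 by the signal of its strongest one (percentile 97.8), whereas Rbp9 ranked 2884 and fne 3029. The median over those genes was 289, and the quartiles were 196 and 504. The fne and Rbp9 promoter peaks thus lay between the lower quartile and the median, and elav lay above the 95th percentile of 1316. The genes ranked next to elav were Sarm (signal 1939) and CG2258 (1923) above it and CHES-1-like (1917) and CG11151 (1896) below it. Sarm held 6 IDR summits and CHES-1-like 13. Next to Rbp9 stood Targ3 and park (both 236.4, 1 shared rank), DNaseII (236.3) and eIF5B (236.3), and next to fne stood Bap170 and Trap1 (both 225.4), CrebA (225.1) and Socs16D (225.1). This likeness is in 1 value, promoter signal, over the pooled replicates.

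**Figure D4:**
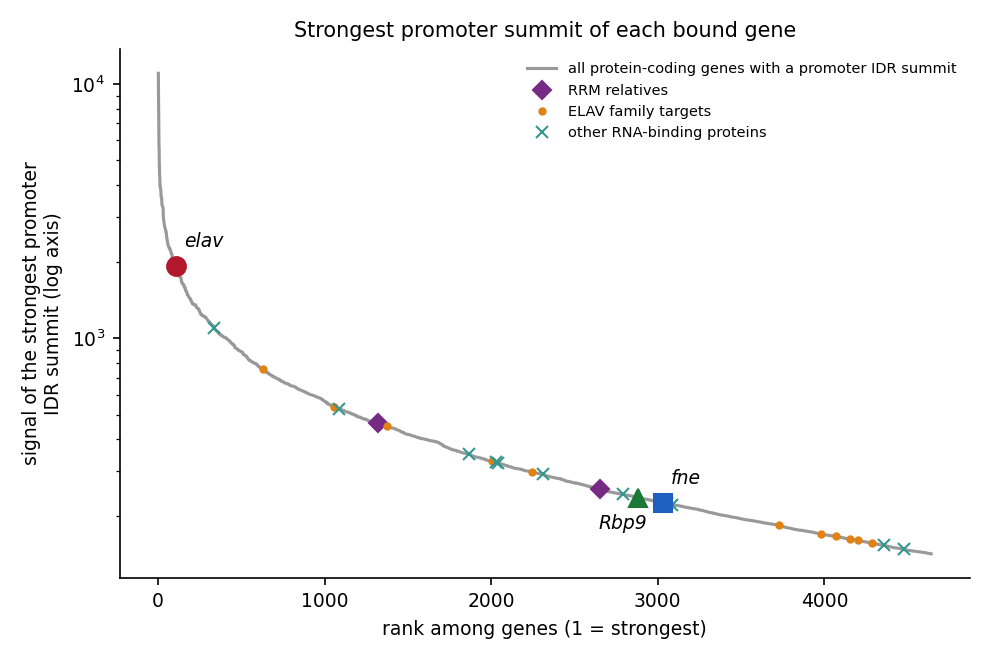
The grey curve orders the 4641 protein-coding genes with a promoter IDR summit by the signal of the strongest one (vertical log axis) against rank. The elav symbol sits at rank 105, and fne and Rbp9 sit at ranks 3029 and 2884, among the RRM relatives, ELAV family targets and other RNA-binding protein genes that are marked on the curve.

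Only 1 of the alternative promoters of each gene had an IDR summit within 500 bp. Start sites within 1000 bp of each other were joined into a promoter, which gave 2 promoters for elav and 3 each for fne and Rbp9, numbered from the most upstream one. Of these 8 promoters 3 had an IDR summit, against 28.7% of the 4117 promoters of protein-coding genes with 2 or more. Over the 1666 protein-coding genes with 2 or more promoters, exactly 1 promoter had an IDR summit in 36.6%, none had one in 47.7% and 2 or more did in 15.7%. Among the 610 genes with exactly 1, it was the most upstream promoter in 62.8%. That was so for elav, whereas fne and Rbp9 had the summit at the second of their promoters.

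At elav the bound promoter was P1, and P2 (TSS at 520285, 1 transcript) had only a pooled summit of signal 34.2, 101 bp downstream in the 5' UTR, which replicate 1 listed at rank 23427 and replicate 2 did not list. At fne, P1 (4 transcripts) had a pooled summit of signal 85.9, 368 bp upstream, at rank 9633 in replicate 1 and 12129 in replicate 2. A stronger pooled summit of signal 103.8 lay 573 bp upstream of P1, outside the window and the gene, and so was not counted. P2 of fne (5 transcripts) was the promoter with the IDR summit, and P3 (TSS at 12941272, 2 transcripts) had its nearest pooled summit 1022 bp upstream. At Rbp9, P2 (4 transcripts) was bound. P1 (TSS at 2954762, 2 transcripts) and P3 (3 transcripts) had no pooled summit within 500 bp, the nearest being 1034 bp downstream of P1 and 573 bp upstream of P3. In all, 5 of the 8 promoters had a pooled summit, close to the share of 67.2% over those 4117 promoters. Counted per gene, pooled promoter summits were found in 62.9% of protein-coding genes, in 66.6% when summits inside the gene are added, and at the promoters of 80.1% of genes of 10 to 40 kb.

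**Figure D5:**
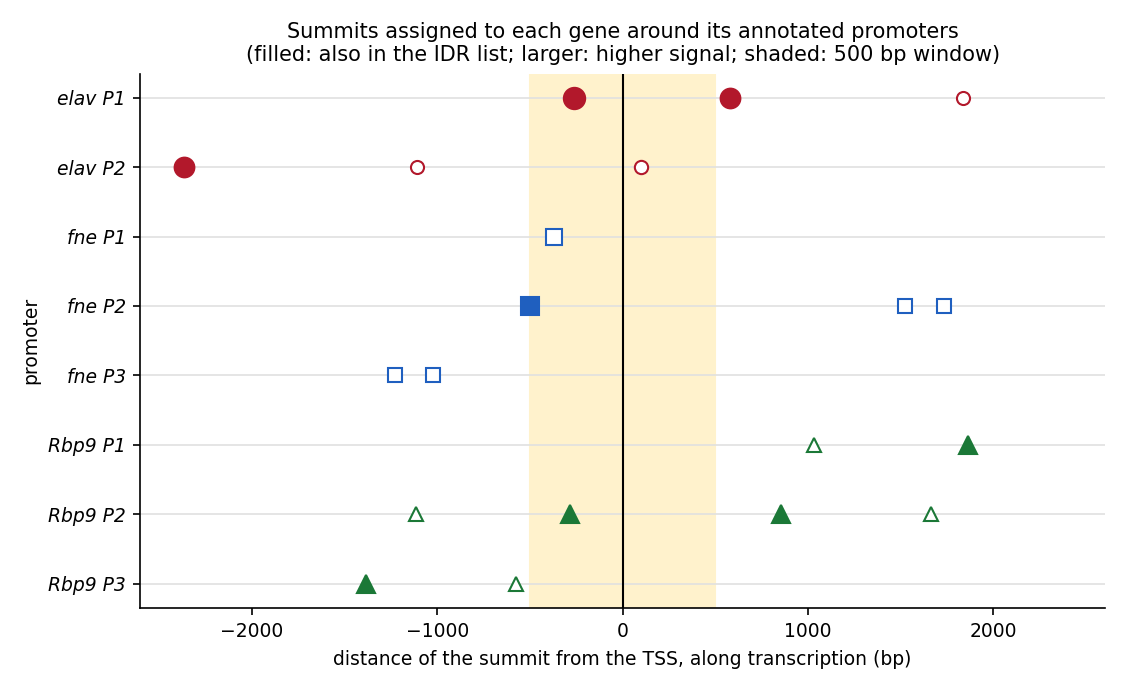
Rows are the 8 promoters, and symbols give the distance (bp, along transcription) of summits assigned to the gene from the TSS, filled for IDR summits and larger for higher signal. The IDR summits inside the shaded 500 bp window stand 264 bp upstream of elav P1, 499 bp upstream of fne P2 and 285 bp upstream of Rbp9 P2.

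The promoter summits of the family lay farther upstream than most. Over the 4076 IDR summits within 500 bp of a TSS of any gene, the median position was -73 bp from the nearest one, with quartiles of -155 and -10 bp. A position as far upstream as that of elav or farther, still within the window, was held by 10.1% of them, one as far as that of Rbp9 by 8.51%, and one as far as that of fne by 0.0736%. The share for fne is small by construction, since its summit lies at the edge of the window and hardly any farther position is counted. In the replicates the fne summit stood at -473 and -547 bp. Summits over 250 bp from the nearest TSS on either side made up 14.5% of promoter summits. With a window of 250 bp none (0) of the 8 promoters had an IDR summit.

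Of the 11 words searched, 5 were found at the family's summits. TATCGATA, GGTCACACT, Motif 6 and Motif 7 occurred within 100 bp of none of the 6 IDR summits, where they occurred at 5.69%, 2.93%, 1.02% and 7.37% of all IDR summits and at 8.64%, 4.64%, 1.52% and 10.4% of those at promoters, so that 0 of 6 says nothing about the family. CGATA was found at the intronic summit of Rbp9, directly at the summit, and occurred at 35.1% of all IDR summits. GAGAG occurred 3 times within 44 bp upstream of the intronic elav summit and once at each Rbp9 summit, and was found at 24.0% of all IDR summits. TATAAA overlapped the fne promoter summit (34.0% of all), TCAGT lay 2 bp from the Rbp9 promoter summit (32.9%), and CACACACA was near the intronic elav summit (4.90%). CACGTG (2.37% of all IDR summits) and CAGCTG (10.8%) were at none of the 6. The elav promoter summit and the intronic fne summit held no word of the list. A missing match says only that these letters are not in this window.

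Base composition differed widely within the family. GC content within 100 bp of the summit was 46.8% at the intronic elav summit, above that of 85.9% of all IDR summits, and 21.9% at the fne promoter summit, above that of 1.76% of them. The other 4 summits lay between 33.8% and 38.8%, close to the median of 36.3% over all IDR summits.

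The 15 weaker pooled summits, those outside the IDR list, had signals of 28.5 to 94.1, and the authors' q values ran from 4.83e-05 to 0.263. By location in the gene 8 were in introns, 5 in 3' UTRs, 1 in a 5' UTR and 1 upstream. Of these 15, 7 overlapped a peak of both replicates, 7 one of replicate 1 alone, 0 one of replicate 2 alone and 1 neither. Among those overlapping both, the 2 at Rbp9 shared 1 peak of replicate 2. Over all 23514 pooled peaks below the IDR list, 67.6% overlapped both, 14.6% replicate 1 alone, 13.6% replicate 2 alone and 4.14% neither. The difference from these shares was not tested.

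The strongest weak summit of the family lay in the 3' UTR of Rbp9. Its signal was 94.1, at rank 13608 in replicate 1 and 8562 in replicate 2. Its summit at 2964545 was 306 bp before the nearest annotated transcript end, which is not the end of the gene at 2968434. A second pooled summit (signal 33.7) stood 83 bp before that transcript end, and replicate 2 had 1 peak for both. At elav, 3 weak summits lay in the long 3' UTR of the 1 transcript that runs to the 3' end of the gene. The strongest of them (signal 76.8, summit at 510725) ranked 13214 in replicate 1 and 12523 in replicate 2 and stood 1290 bp from the TSS of arg. The one at 509414 (signal 28.5) was 21 bp from the TSS of arg, so it lies at a promoter on the other strand and was counted for elav only because it is inside that gene. Its replicate summits lay 425 bp apart. In fne, 5 weak summits were intronic, with signals of 38.6 to 63.0, of which those at 12930025, 12940042 and 12940250 had no match in replicate 2.

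Genes near the ELAV family by sequence or function were compared by their counts alone, beside the 33.3% of all protein-coding genes. The closest RRM relatives, Sxl, the switch gene of female development, and ssx, its paralog, both had a promoter IDR summit, with signals of 462 and 254. Sxl held 3 IDR summits. Of 15 genes whose transcripts ELAV family proteins are known to process or bind, 11 had a promoter IDR summit. The strongest were shep (754), AGO1 (538), a small RNA effector, emc (452), a helix-loop-helix regulator, and pum (328), a translational repressor. The median over the 11 was 184, below the median of 289 over all bound genes. Named after their values were seen, the textbook splicing targets ewg (160), Nrg (166) and arm (162) had promoter peaks below the lower quartile of bound genes. Adar (170), Imp (156) and Khc-73 (184) of the same list, also named after their values were seen, lay below it too. Dscam1, nmo, mei-P26 and bam, named likewise, had no promoter summit in the IDR list, although nmo had 2 IDR summits inside the gene.

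Of 16 other RNA-binding protein genes, 11 had a promoter IDR summit, at a median signal of 291, with msi (1100), Syp (527), mub (350) and ps (325) strongest. These genes are long as well, 12 of 15 targets and 12 of 16 RNA-binding protein genes being over 10 kb. None (0) of 9 genes for neuronal proteins of synapses, transmitter synthesis and axons (nSyb, brp, Syt1, Syx1A, futsch, para, ChAT, Gad1, VGlut) had a promoter IDR summit. The share was 33.3% over all protein-coding genes and 43.9% over those of 10 to 40 kb, and 7 of the 9 are over 10 kb. ChAT, which makes acetylcholine and is also named after its value was seen, had 1 IDR summit inside the gene. In the pooled list 7 of the 9 had a weaker promoter summit. A pooled promoter summit of any strength was found at 14 of the 15 targets and 16 of the 16 other RNA-binding protein genes. The pooled share was 62.9% over all protein-coding genes and 80.1% over those of 10 to 40 kb. Of the glial genes repo, moody and alrm, moody had a promoter IDR summit (1746). The lists were not tested against each other, and neighbouring genes can share a peak.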

How the data were processed

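Chromatin from whole female adults was fragmented by sonication, per the labels. Peaks were called for each replicate and the pooled replicates against a control, and the IDR list was derived from these, per the deposited descriptions; no source used here names the aligner, the caller or the threshold of the IDR step. The deposited lists hold signal and the −log10 of the q value as the authors' caller wrote them, which is at its maximum of 4.32 in 100% of IDR peaks. The depth is unknown, and columns of per-sample values left unused numbered 0. Coordinates are dm6, counted from 1. Genes and TSSs came from Ensembl release 115 without transposable elements, and RefSeq gave the same spans and TSSs for the 3 genes. A replicate peak matched when it overlapped by 1 bp and had the nearest summit. Ranks are by signal. The members, gene lists and words were chosen with earlier results of these data known. The rule for named genes took the members, genes with a TSS within 500 bp of their summits, up to 4 strongest bound genes of each list and the nearest ranks; others are marked as named after their values were seen. Alternatives were other windows, thresholds, overlaps, annotations and single replicates. The assignment was checked on 200 planted promoter summits, of which 100% were recovered. No p-value was computed. Scripts ran in Python 3.11.15 with pandas 2.3.3 and numpy 2.4.6, and figures were drawn with matplotlib 3.10.9.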

Additional observations from a re-analysis of the deposited data

How the results depend on the processing

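Each gene kept 2 IDR summits with a window of 1000 bp, with overlap of intervals in place of summits, with the RefSeq annotation and with the strongest 6486 peaks of either replicate alone (range 2 to 2 for elav, fne and Rbp9). A window of 250 bp left 1 for elav and did not alter fne and Rbp9, whose summits are inside the gene. The split into promoter and other summits did depend on the window. At 1000 bp the elav summit 578 bp and the Rbp9 summit 852 bp from a TSS also count as promoter summits. The upper 50% of the IDR peaks by signal held 2 for elav, 0 for fne and 1 for Rbp9. The whole pooled list held 7, 8 and 6, its upper 50% 3, 4 and 3, and each replicate list 5 to 7, 6 to 10 and 5 to 6. Pooled summits with summits of both replicates within 100 bp numbered 3, 5 and 3. Those overlapping both replicates by 1 bp numbered 4, 5 and 4, and by 50% of the shorter peak 3, 5 and 4. In alternatives added after the data were seen, 0 of the 8 promoters had an IDR summit with the window of 250 bp, 1 with the upper 50% and 5 in the pooled list, against 3, and 2 to 3 with a single replicate, since the fne summit of replicate 2 lies outside the window. Leaving out summits within 500 bp of any other gene's TSS left elav 1 IDR and 5 pooled summits. Keeping those near lncRNA:enrr, which shares the elav TSS, left 2 and 6, and fne and Rbp9 kept their counts under both. No paired analysis was possible because there is 1 group.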
